A study of Mus musculus with 32 samples.

Results

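The genes described here are 37 genes of the cell's response to unfolded protein and to amino acid shortage, taken by symbol from a table of 57186 mouse genes. Of these, 15 are ATF4 genes (Atf4, Atf5, Ddit3, Trib3, Chac1, Sesn2, Asns, Psat1, Phgdh, Shmt2, Mthfd2, Slc7a5, Slc3a2, Pycr1 and Aldh18a1). Another 18 are folding genes of the endoplasmic reticulum (ER): Hspa5, Hsp90b1, Pdia3, Pdia4, Pdia6, Calr, Canx, Dnajb9, Dnajc3, Herpud1, Sel1l, Edem1, Xbp1, Ero1l, Creld2, Manf, Sdf2l1 and Hyou1. The other 4 are sensors or feedback genes of the same response (Ppp1r15a, Atf6, Ern1 and Eif2ak3). All 37 were found, and all 37 passed the filter on low counts that left 14428 genes to test. The levels come from mRNA read at its 3' end, in 32 libraries of 3T3-L1 cells, a mouse preadipocyte line, after differentiation to adipocytes with insulin, dexamethasone and IBMX. The groups, of 4 libraries each, were TNF-alpha (TNF) plus SCO, TNF plus CAP7, TNF plus rosiglitazone (ROSI), TNF plus DMSO, SCO alone, CAP7 alone, ROSI alone and DMSO alone, all for 24 h. ROSI is an agonist of the nuclear receptor PPARγ, and DMSO is the solvent control. The series title names an extract of Artemisia scoparia, while neither SCO nor CAP7 is defined and no dose is given in the sources used here. The labels call the 4 libraries of a group biological replicates of this 1 cell line.

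When proteins misfold in the ER, 3 membrane sensors respond. IRE1 (gene Ern1) splices the mRNA of the transcription factor XBP1, ATF6 is cut to release a transcription factor, and PERK (Eif2ak3) phosphorylates the initiation factor eIF2α. Phosphorylated eIF2α lowers protein synthesis and favours translation of ATF4, whose targets supply amino acids and one-carbon units and, under lasting stress, include Ddit3 (CHOP) and Trib3. Other kinases reach the same eIF2α site after amino acid loss, viral RNA or mitochondrial trouble, so ATF4 genes can move without the ER folding genes. ATF6 and spliced XBP1 mainly raise chaperones, disulphide isomerases and the degradation machinery of the ER, which adipocytes need for secreting proteins such as adiponectin. The counts used here do not show splicing of Xbp1, cleavage of ATF6 or phosphorylation of eIF2α.

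Each group is known for a sequence element in some of its promoters, and a few promoters that hold it are printed here. RefSeq promoters (GRCm38.p6, 250 bases before to 50 after each gene's start) were at hand for 32 of the 37 genes and were searched on both strands for 3 motifs. The ER stress element, spelled CCAAT and CCACG with any 9 bases between them, was in 7 of 15 ER folding promoters (Hspa5, Hsp90b1, Pdia6, Calr, Canx, Dnajc3 and Creld2), in 0 of 14 ATF4 gene promoters and in 0.119% of all 32851 promoters of that length. The shorter form, ATTGG and CCACG with any 1 base between them, was in the promoter of Herpud1, against 0.0365% of all promoters. The C/EBP-ATF response element, spelled TGATGNAA, was in 4 of 14 ATF4 gene promoters (Trib3, Chac1, Asns and Pycr1), in 1 of 15 ER folding promoters (Herpud1) and in 3.97% of all promoters. A match is a run of letters and does not show that a factor was bound. In the lines below capitals mark the motif, 30 bases on each side are in lower case, and the strand is that of the gene, so that some motifs read as the reverse complement. The windows of Chac1 (plus strand) and Asns (minus strand) were chr2:119351019-119351086 and chr6:7693195-7693262. Those of Hspa5 and Creld2 (plus strand) were chr2:34771995-34772073 and chr15:88819490-88819568, and those of Calr and Canx (minus strand) were chr8:84847045-84847123 and chr11:50325770-50325848. The window of Herpud1 (plus strand) was chr8:94386347-94386417.
Chac1: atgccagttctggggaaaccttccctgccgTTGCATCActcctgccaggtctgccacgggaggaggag
Asns: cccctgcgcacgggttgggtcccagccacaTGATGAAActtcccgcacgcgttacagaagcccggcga
Hspa5: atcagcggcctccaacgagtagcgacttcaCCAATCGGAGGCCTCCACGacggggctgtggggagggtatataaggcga
Creld2: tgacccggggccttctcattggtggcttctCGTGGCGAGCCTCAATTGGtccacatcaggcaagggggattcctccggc
Calr: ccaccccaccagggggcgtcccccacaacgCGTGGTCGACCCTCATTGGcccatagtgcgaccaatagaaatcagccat
Canx: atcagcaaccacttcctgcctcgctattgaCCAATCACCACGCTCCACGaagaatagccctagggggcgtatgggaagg
Herpud1: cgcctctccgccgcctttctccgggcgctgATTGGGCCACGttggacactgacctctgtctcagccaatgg

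Library totals ran from 11312837 to 37675008 counts. Levels below are CPM, counts divided by library size after edgeR's TMM scaling. Differences are log2 fold changes ± standard error from edgeR's quasi-likelihood fit over all 32 libraries, and a gene was called higher or lower at a Benjamini-Hochberg adjusted p under 0.05 over 14428 genes. The cells carried adipocyte markers in every group: the summed level of 8 such genes was 28712 to 57231 CPM with TNF plus a compound, 8772 to 10528 CPM with TNF plus DMSO, 40176 to 69320 CPM with a compound alone and 29579 to 31415 CPM with DMSO alone. The median of these 8 genes, by contrast, stayed below DMSO alone in every library with TNF plus a compound. As a log2 difference it averaged -1.25 with TNF plus SCO, -0.83 with TNF plus CAP7 and -0.48 with TNF plus ROSI. It averaged -2.23 with TNF plus DMSO, and 0.20, 0.38 and 0.37 with SCO, CAP7 and ROSI alone. Summed over 9 genes, preadipocyte markers were at 1408 to 2166 CPM with TNF plus a compound, 2024 to 2159 CPM with TNF plus DMSO, 1945 to 2505 CPM with a compound alone and 3260 to 3791 CPM with DMSO alone. Leukocyte markers, summed over 7 genes, were at 27.3 to 42.1 CPM with TNF plus a compound, 39.4 to 50.8 CPM with TNF plus DMSO, 4.20 to 11.4 CPM with a compound alone and 11.1 to 14.8 CPM with DMSO alone. Of these, Adgre1 was at 0 in all libraries and Ptprc reached at most 0.306 CPM. The higher sums with TNF therefore came from the other listed markers, Cd68, Csf1r, Lyz2, Itgam and Cd14. The adipocyte markers moved with TNF and with the compounds, and their part in the results below was not tested. Among the 37 genes, 8 (Atf5, Ddit3, Shmt2, Slc7a5, Pdia3, Pdia6, Manf and Ppp1r15a) overlap another protein-coding gene in the GENCODE M21 annotation, and the strand setting of the counting is not given in the sources used here, so reads of such neighbours cannot be told apart. A lower level in such bulk RNA does not tell fewer cells of a type from less RNA per cell.

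**Figure D1:**
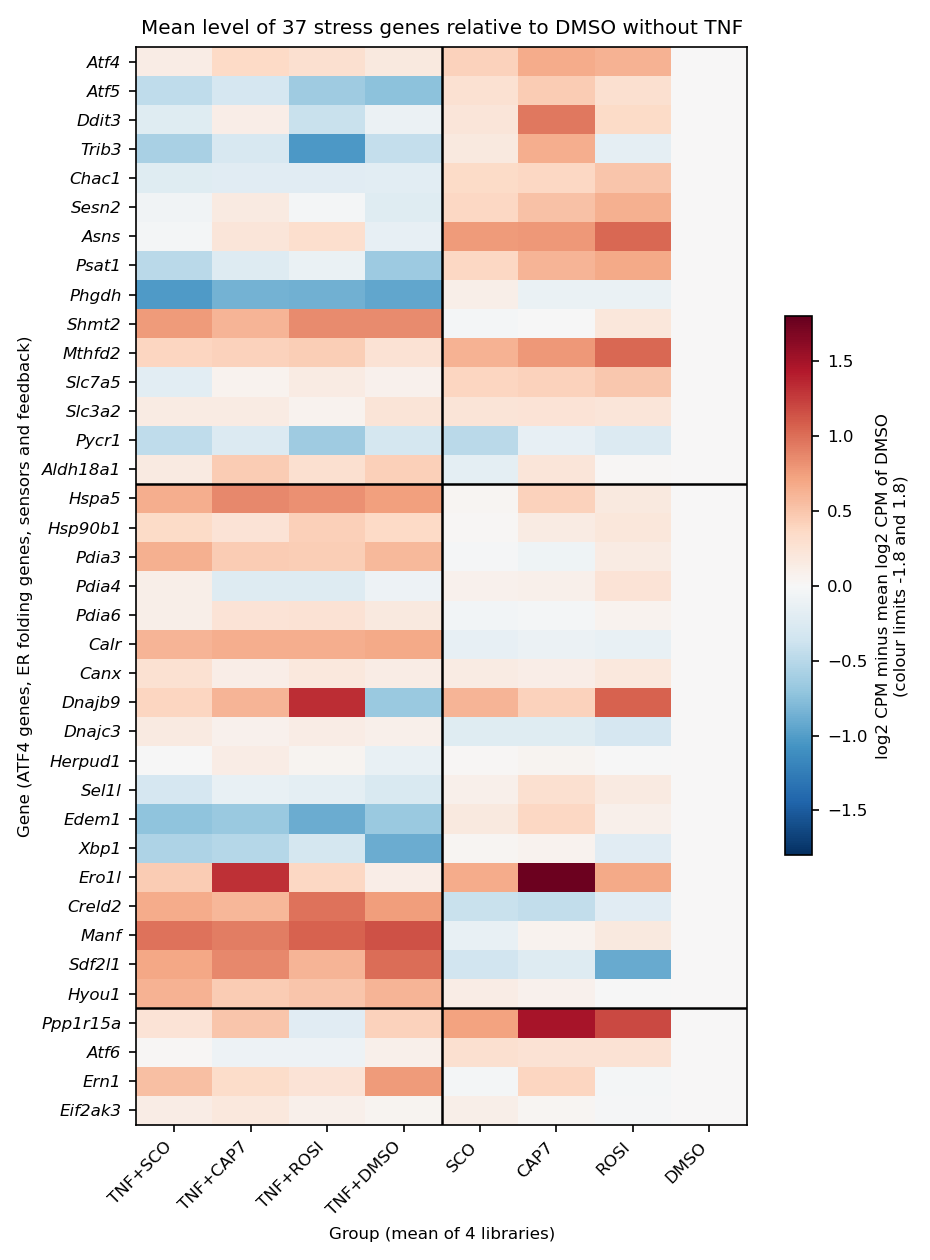
Mean log2 CPM of each of the 37 genes in each group, minus its mean in DMSO alone (colour, red higher and blue lower, 4 libraries a group). With TNF, on the left, folding genes such as Manf and Calr are red, and with a compound alone, on the right, ATF4 genes such as Asns and Mthfd2 are red.

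TNF by itself raised several of the chaperones that hold and fold new proteins in the ER. In cells given TNF plus DMSO, set against DMSO alone, 9 of 18 ER folding genes rose and 4 fell, with a median log2 change of 0.16. Over all genes tested 54.2% were called in this comparison, 26.7% higher and 27.5% lower, with a median of -0.01. Hspa5 (ENSMUSG00000026864), which encodes BiP, the main ER chaperone and a brake on the 3 sensors, was at 1832, 1783, 1731 and 1842 CPM with TNF plus DMSO, against 1053, 1084, 1113 and 1074 CPM with DMSO alone. The groups did not overlap, and the log2 change was 0.73 ± 0.048 (adjusted p = 4.69e-16). Manf (ENSMUSG00000032575), a secreted cofactor of BiP, was at 164, 139, 153 and 171 CPM with TNF plus DMSO and at 70.9, 66.4, 72.6 and 71.4 CPM with DMSO alone. This was the largest rise of the list, 1.16 ± 0.080 (adjusted p = 2.51e-15). Calr (ENSMUSG00000003814), the lectin chaperone calreticulin, was at 1862, 1749, 1702 and 1913 CPM with TNF plus DMSO, against 1128, 1136, 1072 and 1183 CPM with DMSO alone, and every library with TNF lay above those without.

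Other genes of the same kind rose with them. Sdf2l1, which works with BiP and DNAJB11, rose by 1.02 ± 0.12, to 48.6 ± 4.82 CPM with TNF plus DMSO, against 24.1 ± 1.68 CPM with DMSO alone (mean ± SD, n = 4 each). Creld2, a secreted ER stress protein, rose by 0.74 ± 0.13, Hyou1, the nucleotide exchange factor of BiP, by 0.61 ± 0.12, and the disulphide isomerase Pdia3 by 0.58 ± 0.11. The changes of Hsp90b1 (GRP94) and Pdia6 were smaller, at 0.37 ± 0.081 and 0.18 ± 0.059. The genes that fell were Edem1, Sel1l, Xbp1 and Dnajb9. Edem1, which takes misfolded glycoproteins out of folding, was at 57.7, 58.3, 55.6 and 60.0 CPM with TNF plus DMSO and at 86.8, 93.4, 89.6 and 100.5 CPM with DMSO alone, lower by 0.68 on the log2 scale. Sel1l, the partner of the ubiquitin ligase that clears such proteins, fell by 0.27. Xbp1 (ENSMUSG00000020484) fell by 0.89, and Dnajb9, an XBP1 target that binds BiP and restrains IRE1, by 0.66. Values for Canx, Pdia4, Dnajc3, Herpud1 and Ero1l, which were not called, lay between -0.13 and 0.13.

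The same contrast was made in cells that received a compound, and these pairs of groups share no library with each other. With TNF plus SCO, set against SCO alone, 10 of 18 ER folding genes rose and 4 fell (all genes: 48.4% called, 25% higher and 23.3% lower). With TNF plus CAP7, against CAP7 alone, the counts were 10 and 3 (all genes: 45.8% called, 23.4% and 22.4%), and with TNF plus ROSI, against ROSI alone, they were 11 and 3 (47.4% called, 24.9% and 22.5%). Without replicate 4 of TNF plus CAP7 the number that fell in CAP7-treated cells was 5, as it was without the filter on low counts. The same 8 genes rose in all 4 pairs: Hspa5, Pdia3, Pdia6, Calr, Creld2, Manf, Sdf2l1 and Hyou1. Sel1l and Edem1 fell in all 4. Calr rose by 0.75 in SCO-treated, 0.76 in CAP7-treated and 0.78 in ROSI-treated cells, next to 0.68 with DMSO. Manf rose by 1.12, 0.86 and 0.88 with the 3 compounds in that order, and Hspa5 by 0.62, 0.45 and 0.65. The rise of Hyou1 in CAP7-treated cells, 0.37 ± 0.12, was lost without replicate 1 of CAP7 alone (0.28). That of Pdia6 in SCO-treated cells, 0.17 ± 0.059, was lost without replicate 2 of SCO alone or replicate 1 of TNF plus SCO (0.14). That of Pdia3 in ROSI-treated cells, 0.29 ± 0.11, was lost without replicate 1 or 4 of ROSI alone or replicate 1 or 3 of TNF plus ROSI (0.20 to 0.26). Hsp90b1 rose by 0.33 ± 0.081 in SCO-treated cells and was at 0.11 in CAP7-treated cells, not called. In ROSI-treated cells it rose by 0.22 ± 0.081, a call lost without replicate 1 or 3 of ROSI alone or replicate 3 of TNF plus ROSI (0.19 to 0.21). That call was also lost with RLE factors (0.19). Pdia4, another disulphide isomerase, was called in 1 of the 19 comparisons, with TNF plus ROSI against ROSI alone, where it fell by 0.50 with overlapping groups, a call lost without replicate 3 of ROSI alone (-0.32). Dnajc3, the co-chaperone p58IPK, rose in the compound-treated cells, by 0.38 with SCO, 0.29 with CAP7 and 0.44 with ROSI, and was at 0.09 with DMSO (adjusted p = 0.284). The difference between the TNF response of ROSI-treated and DMSO-treated cells was 0.35 ± 0.099 for this gene (adjusted p = 0.0134).

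**Figure D2:**
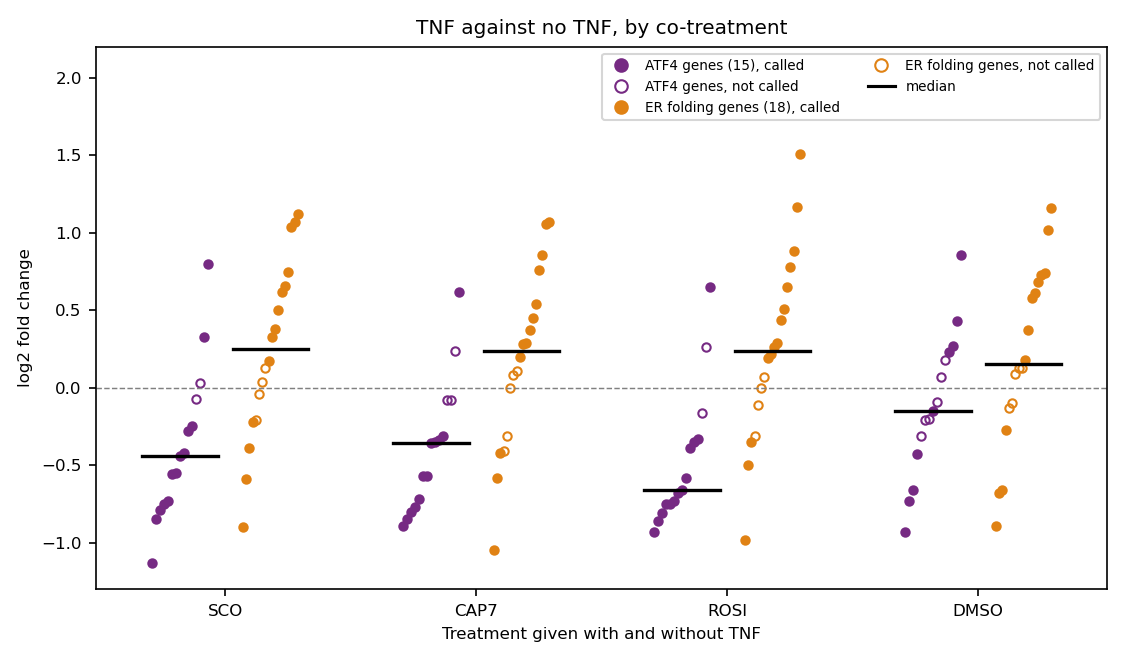
Log2 fold change with TNF of each ATF4 gene (purple) and each ER folding gene (orange) in SCO-treated, CAP7-treated, ROSI-treated and DMSO-treated cells; filled points were called at an adjusted p under 0.05 and black lines are medians. The median of the ER folding genes is 0.25, 0.24, 0.24 and 0.16 from left to right, and that of the ATF4 genes is -0.44, -0.36, -0.66 and -0.15.

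ATF4 genes did not move one way with TNF in DMSO-treated cells. Of 15, 4 rose and 5 fell, with a median of -0.15, and without replicate 3 of TNF plus DMSO 3 fell. With 54.2% of all genes called (26.7% higher and 27.5% lower), these counts are near the share over all genes. Phgdh (ENSMUSG00000053398), the first enzyme of serine synthesis, was at 17.8, 15.5, 15.2 and 15.8 CPM with TNF plus DMSO, against 27.9, 30.6, 32.2 and 32.5 CPM with DMSO alone. It fell by 0.93 on the log2 scale (SE 0.087, adjusted p = 8.94e-12), and Psat1, the next enzyme of that pathway, fell by 0.66. Shmt2 (ENSMUSG00000025403), the mitochondrial enzyme that splits serine to glycine and a one-carbon unit, went the other way. Its levels were 75.5, 70.4, 67.7 and 74.8 CPM with TNF plus DMSO and 38.7, 38.3, 42.1 and 40.1 CPM with DMSO alone, a rise of 0.86 ± 0.072. The transcription factor Atf5 fell by 0.73, and Trib3, a pseudokinase that dampens AKT signalling, fell by 0.43, a call lost without replicate 3 of TNF plus DMSO (-0.34). Slc3a2, the heavy chain of several amino acid carriers, rose by 0.23, and Aldh18a1, which starts proline synthesis, by 0.43. Mthfd2, a mitochondrial folate enzyme, rose by 0.27, which was lost without replicate 1 or 3 of DMSO alone or replicate 2 or 4 of TNF plus DMSO (0.22 to 0.24). Asns, asparagine synthetase, fell by 0.15, which was lost without replicate 2, 3 or 4 of DMSO alone or replicate 1 or 3 of TNF plus DMSO (-0.16 to -0.12). That call for Asns was also lost with library sizes alone (-0.14) and without the filter on low counts (-0.14). Atf4 itself (ENSMUSG00000042406) was at 722, 721, 634 and 752 CPM with TNF plus DMSO and at 607, 605, 655 and 632 CPM with DMSO alone. The groups overlapped, and the change of 0.18 ± 0.080 was not called (adjusted p = 0.0576).

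In compound-treated cells most ATF4 genes fell with TNF. The counts were 11 of 15 lower and 2 higher with TNF plus SCO against SCO alone, 11 lower and 1 higher with TNF plus CAP7 against CAP7 alone, and 12 lower and 1 higher with TNF plus ROSI against ROSI alone. Over all genes 23.3%, 22.4% and 22.5% were lower and 25%, 23.4% and 24.9% higher in these 3 comparisons. The medians were -0.44, -0.36 and -0.66, while the median over all genes was 0, 0 and 0.01. Atf5, Trib3, Asns, Psat1 and Phgdh fell in all 4 pairs and Shmt2 rose in all 4. In the DMSO pair the calls for Trib3 and Asns did not hold in every setting, as given above. Atf4 was at 703, 852, 793 and 700.3 CPM with TNF plus ROSI, against 895, 968, 912 and 1108 CPM with ROSI alone, lower by 0.35, and fell by 0.28 in SCO-treated and 0.31 in CAP7-treated cells. Asns was at 133, 160.4, 146 and 154 CPM with TNF plus SCO, against 253, 262, 259 and 255 CPM with SCO alone, lower by 0.79. In CAP7-treated and ROSI-treated cells Asns fell by 0.57 and 0.73. Phgdh fell by 1.13, 0.72 and 0.75 and Psat1 by 0.85, 0.85 and 0.81 in SCO-treated, CAP7-treated and ROSI-treated cells, while Shmt2 rose by 0.80, 0.62 and 0.65. Trib3 fell by 0.75, 0.89 and 0.86 with SCO, CAP7 and ROSI, and Chac1, a glutathione-degrading enzyme, by 0.56, 0.57 and 0.68. Ddit3 (CHOP), a transcription factor linked to cell death, fell by 0.80 in CAP7-treated and 0.75 in ROSI-treated cells, and by 0.42 in SCO-treated cells, a call lost without replicate 2 of SCO alone or replicate 1 of TNF plus SCO (-0.36 to -0.32). Mthfd2 fell by 0.36 and 0.58 in CAP7-treated and ROSI-treated cells, and by 0.25 in SCO-treated cells, a call lost without replicate 2 or 3 of SCO alone or replicate 1, 2 or 4 of TNF plus SCO (-0.26 to -0.19). The call in SCO-treated cells was also lost with library sizes alone (-0.23). The libraries of TNF plus CAP7 were uneven: the median ATF4 gene, as a log2 difference from DMSO alone, stood at 0, 0.10, -0.18 and 0.32 in replicates 1 to 4.

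Without TNF, each compound raised most of the ATF4 genes, while changes of the ER folding genes were fewer and went both ways. The 3 comparisons below share the 4 libraries of DMSO alone. With SCO alone 9 of 15 ATF4 genes rose and 1 fell, where 19.3% of all genes were called (10.3% higher, 8.99% lower). With CAP7 alone 11 rose, where 30.3% of all genes were called (15.2% and 15%), and with ROSI alone 11 rose, where 37.4% were called (18.4% and 19%). With CAP7 and with ROSI 0 fell by edgeR, as at an unadjusted p under 0.05, with DESeq2 and with limma-voom. The ER folding genes gave 2 higher and 2 lower of 18 with SCO, 5 and 2 with CAP7, and 6 and 3 with ROSI. Median changes of the ATF4 genes were 0.28, 0.46 and 0.37, and those of the ER folding genes 0.03, 0.08 and 0.13, which turned to -0.04, -0.03 and -0.01 when libraries were scaled by their totals alone. That scaling put the median over all genes at -0.13 with CAP7 and -0.17 with ROSI. The share of calls that were higher was then 35.3%, 28.8% and 27.8% with SCO, CAP7 and ROSI, in place of 53.4%, 50.3% and 49.2%. Under it, 5 of 15 ATF4 genes rose and 1 fell with SCO, 9 rose and 1 fell with CAP7, and 7 rose and 2 fell with ROSI.

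Atf4 was at 749, 922, 835 and 846 CPM with SCO alone, 988, 955, 998 and 1041 CPM with CAP7 alone and 895, 968, 912 and 1108 CPM with ROSI alone, against 607, 605, 655 and 632 CPM with DMSO alone. No library with a compound reached down to the DMSO range. The log2 changes were 0.42 ± 0.080 for SCO, 0.67 ± 0.080 for CAP7 and 0.64 ± 0.080 for ROSI, with adjusted p of 0.000124, 1.81e-08 and 3.04e-08. Asns and Mthfd2, which make asparagine and one-carbon units, moved further. Asns (ENSMUSG00000029752) was at 253, 262, 259 and 255 CPM with SCO alone, 235, 276, 256 and 276 CPM with CAP7 alone and 307, 319, 285 and 335 CPM with ROSI alone, against 142, 154, 151 and 159 CPM with DMSO alone. Every library with a compound lay above every DMSO library, and the changes were 0.77 ± 0.065, 0.79 ± 0.065 and 1.04 ± 0.065 for SCO, CAP7 and ROSI. Mthfd2 (ENSMUSG00000005667) averaged 312 ± 31.1 CPM with SCO alone, 348 ± 33.3 CPM with CAP7 alone and 414 ± 47.5 CPM with ROSI alone, against 201 ± 15.4 CPM with DMSO alone (SD, n = 4). Its changes were 0.63 ± 0.10, 0.79 ± 0.10 and 1.04 ± 0.10. For Psat1 they were 0.37 ± 0.062, 0.62 ± 0.062 and 0.69 ± 0.062, and for Atf5 0.28 ± 0.071, 0.46 ± 0.071 and 0.30 ± 0.071, the last lost with library sizes alone (0.16). Phgdh, the enzyme just before Psat1, was not called, with 0.11, -0.12 and -0.12.

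The amino acid carriers and the stress regulators gave smaller or less even changes. Slc7a5, the light chain of the large neutral amino acid carrier, rose by 0.41 ± 0.11 with CAP7 and 0.49 ± 0.11 with ROSI. Its rise with SCO, 0.38 ± 0.11, was lost without replicate 3 of DMSO alone or replicate 3 of SCO alone (0.32 to 0.35). That rise was also lost with library sizes alone (0.31). Sesn2, a leucine sensor that restrains mTORC1, rose by 0.54 with CAP7 and 0.64 with ROSI, and by 0.39 with SCO, a call lost without replicate 1, 2 or 4 of DMSO alone or replicate 2 or 3 of SCO alone (0.31 to 0.39). The call for Sesn2 with SCO was also lost with library sizes alone (0.32) and with limma-voom (0.36). Chac1 rose by 0.48 with ROSI. Its rises with SCO, 0.33, and CAP7, 0.35, were lost, for SCO without replicate 3 of DMSO alone or replicate 2 of SCO alone (0.22 to 0.29) and for CAP7 without replicate 3 of DMSO alone (0.25). Each of these calls for Chac1 was also lost with library sizes alone (0.27 and 0.24). Ddit3 was at 468, 395, 476 and 434 CPM with CAP7 alone, against 216, 234, 229 and 237 CPM with DMSO alone, and rose by 0.95 ± 0.14. The change of Ddit3 with SCO was 0.22 ± 0.14 (adjusted p = 0.324), and the call with ROSI, 0.37 ± 0.14, was lost without replicate 1, 2, 3 or 4 of DMSO alone or replicate 3 or 4 of ROSI alone (0.27 to 0.39). The call with ROSI was also lost with library sizes alone (0.23), with limma-voom (0.35) and with DESeq2 (0.38). Trib3 rose with CAP7, by 0.65 ± 0.15, and was not called with SCO (0.18) or ROSI (-0.15). Slc3a2 was called higher with each compound, at 0.23, 0.24 and 0.22 for SCO, CAP7 and ROSI, and the call was lost for SCO without replicate 4 of DMSO alone or replicate 3 of SCO alone (0.19 to 0.20), for CAP7 without replicate 4 of DMSO alone (0.20) and for ROSI without replicate 4 of DMSO alone or replicate 3 or 4 of ROSI alone (0.17 to 0.19). Each of these calls for Slc3a2 was also lost with library sizes alone (0.16, 0.13 and 0.08). Pycr1, the last enzyme of proline synthesis, was the ATF4 gene that fell with SCO, by 0.49, a call lost without replicate 4 of DMSO alone or replicate 1 or 2 of SCO alone (-0.47 to -0.42). That call was also lost with limma-voom (-0.47).

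**Figure D3:**
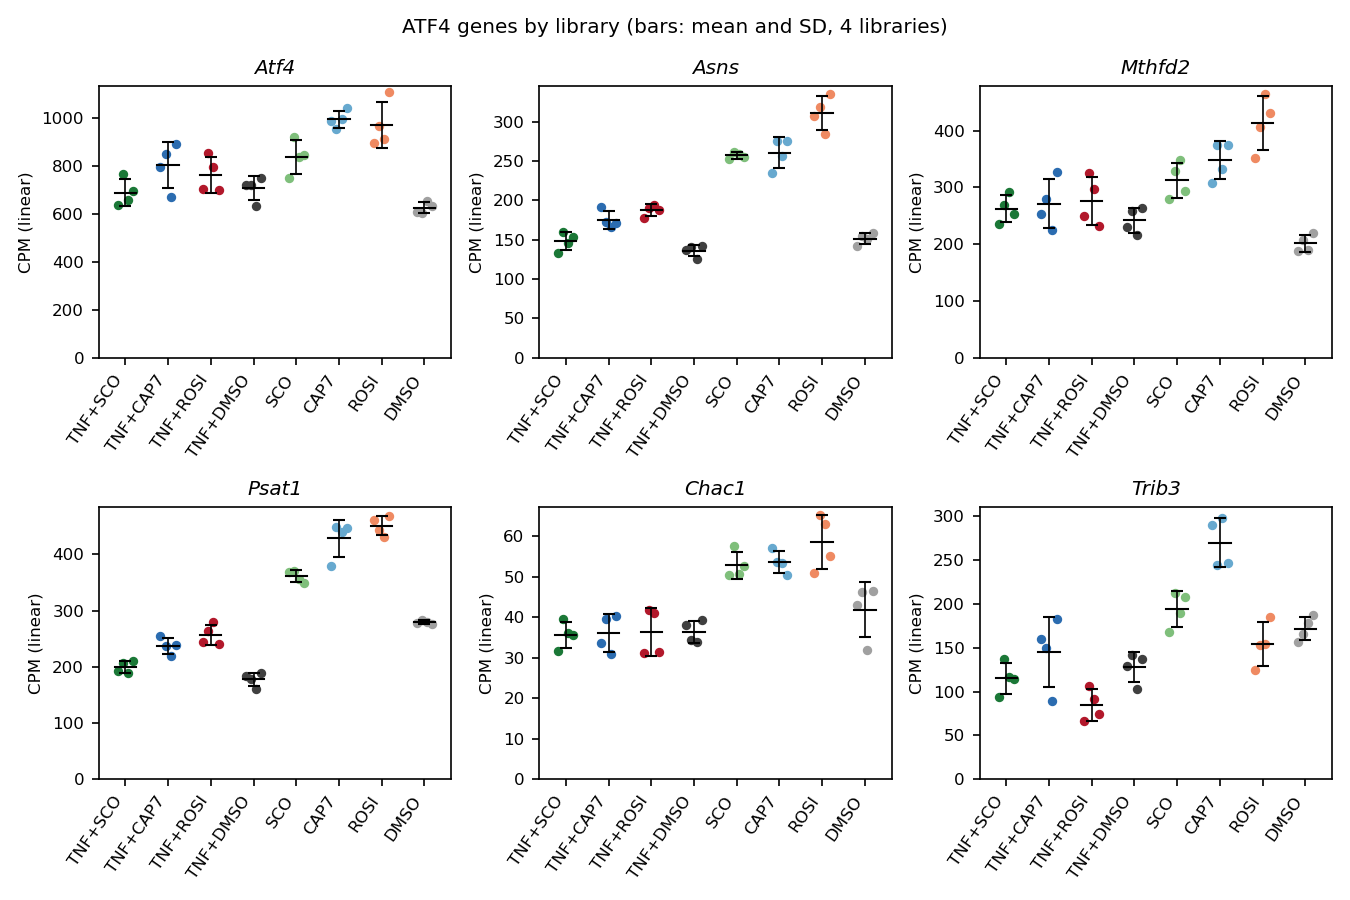
Level of Atf4, Asns, Mthfd2, Psat1, Chac1 and Trib3 in each of the 32 libraries (points, CPM on a linear axis from 0; lines and bars are the mean and SD of 4 libraries). With compounds alone Atf4, Asns and Mthfd2 sit above DMSO alone, and with TNF plus a compound Atf4 sits closer to TNF plus DMSO.

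Among the ER folding genes, the largest rise with a compound alone was that of Ero1l for SCO and CAP7 and that of Dnajb9 for ROSI. Ero1l (ENSMUSG00000021831) encodes an oxidase that passes disulphide bonds to the isomerases of the ER and is also a hypoxia-responsive gene. Its levels were 474, 640.0, 527 and 634 CPM with SCO alone, 1398, 1054, 1274 and 1129 CPM with CAP7 alone and 429, 569, 506 and 848 CPM with ROSI alone, against 379.9, 374, 300.0 and 375 CPM with DMSO alone. The CAP7 libraries lay above all others without TNF. The changes were 0.67 ± 0.18 with SCO, 1.76 ± 0.19 with CAP7 and 0.72 ± 0.18 with ROSI. With TNF present the change with CAP7 was 1.23 ± 0.18 (adjusted p = 1.15e-06), whereas 0.34 ± 0.18 with SCO and 0.28 ± 0.18 with ROSI were not called. Direct comparison of CAP7 with ROSI gave 1.05 ± 0.18 without TNF and 0.95 ± 0.18 with it, and of SCO with CAP7 -1.09 ± 0.18 without TNF and -0.89 ± 0.18 with it. Hspa5 rose by 0.42 ± 0.048 with CAP7 and 0.17 ± 0.048 with ROSI, the last lost with library sizes alone (0.03), and was at 0.04 ± 0.048 with SCO (adjusted p = 0.642). Hsp90b1 rose by 0.21 ± 0.081 with ROSI, a call lost without replicate 2 or 3 of DMSO alone or replicate 1, 2 or 4 of ROSI alone (0.19 to 0.21). Canx, a lectin chaperone in the ER membrane, rose by 0.19 ± 0.069 with ROSI, a call lost without replicate 1 or 3 of DMSO alone or replicate 3 of ROSI alone (0.15 to 0.18), its 1 call in the 19 comparisons. Sel1l rose by 0.29 and Edem1 by 0.38 with CAP7, and Sel1l by 0.17 with ROSI, lost without replicate 1, 2 or 4 of DMSO alone or replicate 3 or 4 of ROSI alone (0.12 to 0.17). With library sizes alone the calls with ROSI for Hsp90b1 (0.07), Canx (0.05) and Sel1l (0.03) were lost as well. That for Sel1l was also lost without the filter on low counts (0.17). Dnajc3 fell by 0.31 with ROSI. Its falls with SCO, 0.22, and CAP7, 0.21, were lost, for SCO without replicate 1, 2 or 3 of DMSO alone or replicate 3 of SCO alone (-0.22 to -0.17) and for CAP7 without replicate 3 or 4 of CAP7 alone or replicate 3 of DMSO alone (-0.20 to -0.18). Each of these falls was also lost without the filter on low counts (-0.22 and -0.21). Creld2 was the other gene that fell with SCO, by 0.40, and CAP7, by 0.44. Both calls were lost, for SCO without replicate 2 of DMSO alone or replicate 1, 2 or 3 of SCO alone (-0.42 to -0.30) and for CAP7 without replicate 2 of DMSO alone (-0.34). The call for Creld2 with SCO was also lost with limma-voom (-0.40). Sdf2l1 fell by 0.89 with ROSI alone, where its libraries were at 12.9, 16.1, 11.7 and 11.3 CPM, against 21.7, 24.2, 24.7 and 25.7 CPM with DMSO alone. It was not called with SCO (-0.33) or CAP7 (-0.20), and Calr, Manf and Hyou1 were called with none of the 3 compounds alone.

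Dnajb9 and Xbp1 were lower with TNF in DMSO-treated cells and were raised by each compound in the presence of TNF. Dnajb9 (ENSMUSG00000014905) was at 108, 114, 108 and 108 CPM with TNF plus SCO, 129.8, 126, 142 and 113 CPM with TNF plus CAP7 and 206, 216, 211 and 202 CPM with TNF plus ROSI, against 54.1, 50.5, 50.0 and 56.1 CPM with TNF plus DMSO. These levels did not overlap those of TNF plus DMSO. Compared with TNF plus DMSO the changes were 1.05 ± 0.063, 1.28 ± 0.063 and 1.99 ± 0.064. Without TNF its levels were 129, 116, 132 and 133 CPM with SCO, 109, 113, 109.5 and 113 CPM with CAP7 and 176, 187, 164 and 172 CPM with ROSI, against 78.5, 87.8, 84.1 and 83.2 CPM with DMSO, and the changes were 0.61 ± 0.063, 0.42 ± 0.063 and 1.07 ± 0.063. Read the other way, TNF lowered Dnajb9 by 0.22 in SCO-treated cells and raised it by 0.26 in ROSI-treated cells and by 0.20 in CAP7-treated cells, the CAP7 call lost without replicate 3 of TNF plus CAP7 (0.14). The difference of the 2 effects, the interaction, was 0.44 ± 0.088 for SCO, 0.86 ± 0.088 for CAP7 and 0.92 ± 0.088 for ROSI, with adjusted p of 0.0011, 2.2e-09 and 3.24e-10.

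The changes of Xbp1 with the compounds were smaller. It was at 106, 114, 105 and 98.8 CPM with TNF plus SCO, 109, 109.9, 114 and 102 CPM with TNF plus CAP7 and 125, 124, 126 and 125 CPM with TNF plus ROSI, against 84.4, 78.5, 81.7 and 90.6 CPM with TNF plus DMSO. The changes against TNF plus DMSO were 0.34 ± 0.057, 0.37 ± 0.057 and 0.58 ± 0.057. Without TNF, Xbp1 was at 0.03 ± 0.056 with SCO and 0.06 ± 0.056 with CAP7, neither called, and fell by 0.20 with ROSI. The interaction was 0.78 ± 0.080 for ROSI. That of CAP7, 0.31 ± 0.080, was lost without the filter on low counts (0.31). That of SCO, 0.30 ± 0.080, was also lost without the filter (0.30). It was lost as well without replicate 2 of DMSO alone or replicate 2 of TNF plus SCO (0.27). Edem1, which TNF also lowered, was not called with TNF plus SCO (-0.05) or TNF plus CAP7 (0.01) and fell by 0.21 with TNF plus ROSI, a call lost without the filter on low counts (-0.22).

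**Figure D4:**
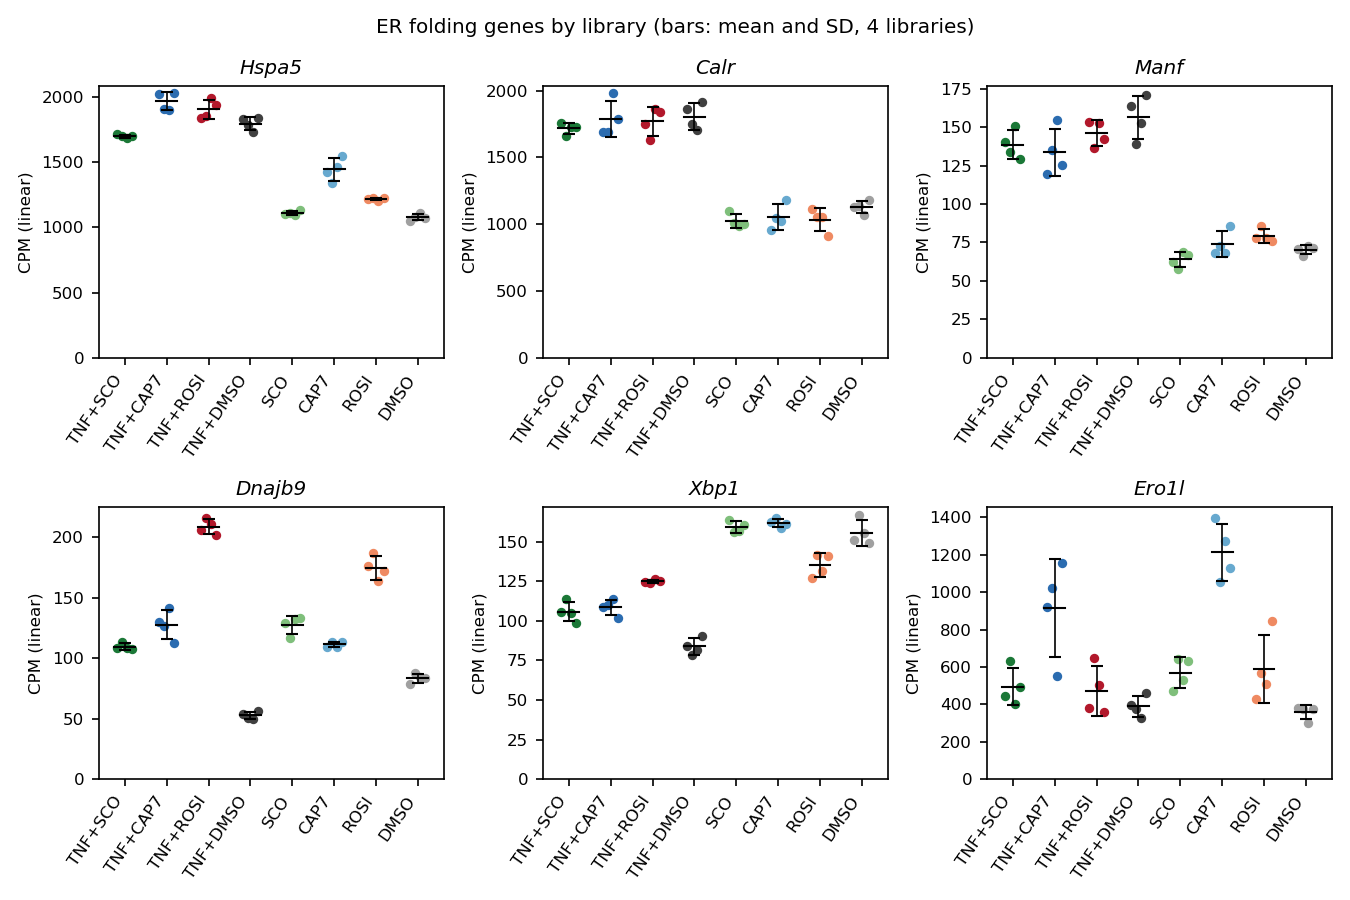
Level of Hspa5, Calr, Manf, Dnajb9, Xbp1 and Ero1l in each of the 32 libraries (points, CPM on a linear axis from 0; lines and bars are the mean and SD of 4 libraries). Hspa5, Calr and Manf are higher in the 4 groups with TNF, Dnajb9 is highest with TNF plus ROSI, and Ero1l is highest with CAP7 alone.

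With TNF present the compounds moved fewer ATF4 genes than without it, and the numbers called were near or below the share over all genes. The 3 comparisons share the 4 libraries of TNF plus DMSO. With TNF plus SCO, 2 of 15 ATF4 genes rose (all genes: 21.3% called, 13.2% higher and 8.09% lower), and these were Atf5, at 0.28 ± 0.071, and Psat1, at 0.17 ± 0.062. The call for Psat1 was lost without replicate 1, 2 or 3 of TNF plus DMSO or replicate 2 or 4 of TNF plus SCO (0.13 to 0.19). It was also lost with library sizes alone (0.10), without the filter (0.17) and with only the compared libraries fitted (0.16). With TNF plus CAP7, 4 rose and 1 fell (all genes: 32.2% called, 18% and 14.2%), and 7 rose without replicate 3 of TNF plus CAP7. The 4 were Psat1 at 0.42 ± 0.062, Atf5 at 0.43 ± 0.071, Asns at 0.37 ± 0.065 and Sesn2 at 0.40 ± 0.13, the last lost without replicate 4 of TNF plus CAP7 or replicate 3 of TNF plus DMSO (0.23 to 0.33), while Shmt2 fell by 0.24. The call for Sesn2 was also lost with library sizes alone (0.30). With TNF plus ROSI, 2 rose and 1 fell (all genes: 35.9% called, 19.6% and 16.3%). Psat1 rose by 0.53 ± 0.062 and Asns by 0.46 ± 0.065. Trib3 was at 66.6, 107, 91.8 and 73.8 CPM with TNF plus ROSI, against 129, 141, 103 and 137 CPM with TNF plus DMSO, and fell by 0.59 (adjusted p = 0.00165). The number that fell with TNF plus ROSI was 3 without replicate 3 of TNF plus DMSO and 2 without replicate 2 of TNF plus ROSI. Atf4 was called with none of the compounds in the presence of TNF: the 95% intervals of its log2 change were -0.20 to 0.12 with SCO, 0.02 to 0.34 with CAP7 and -0.05 to 0.27 with ROSI. Of the 18 ER folding genes 2 rose with TNF plus SCO. The numbers that rose and fell were 5 and 1 with TNF plus CAP7 and 3 and 2 with TNF plus ROSI. With TNF plus SCO 0 ATF4 genes and 0 ER folding genes fell by edgeR, against 2 and 2 at an unadjusted p under 0.05, 0 and 1 with DESeq2 and 0 and 1 with limma-voom. With libraries scaled by totals alone, 44.2%, 36.9% and 31.7% of all calls were higher with SCO, CAP7 and ROSI, in place of 62%, 55.8% and 54.6%, and the median over all genes was -0.16 with ROSI. Herpud1, a partner of the ER ubiquitin ligase, rose by 0.26 ± 0.072 with TNF plus CAP7, a call lost with library sizes alone (0.16). Sdf2l1 fell by 0.40 with TNF plus ROSI. Manf fell by 0.23 with TNF plus CAP7, lost without replicate 1 or 4 of TNF plus CAP7 or replicate 1 or 4 of TNF plus DMSO (-0.20 to -0.18), and Herpud1 rose by 0.19 with TNF plus ROSI, lost without replicate 1, 2 or 3 of TNF plus DMSO or replicate 2 or 3 of TNF plus ROSI (0.12 to 0.20). The call for Herpud1 with TNF plus ROSI was also lost with library sizes alone (0.04) and without the filter on low counts (0.19).

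**Figure D5:**
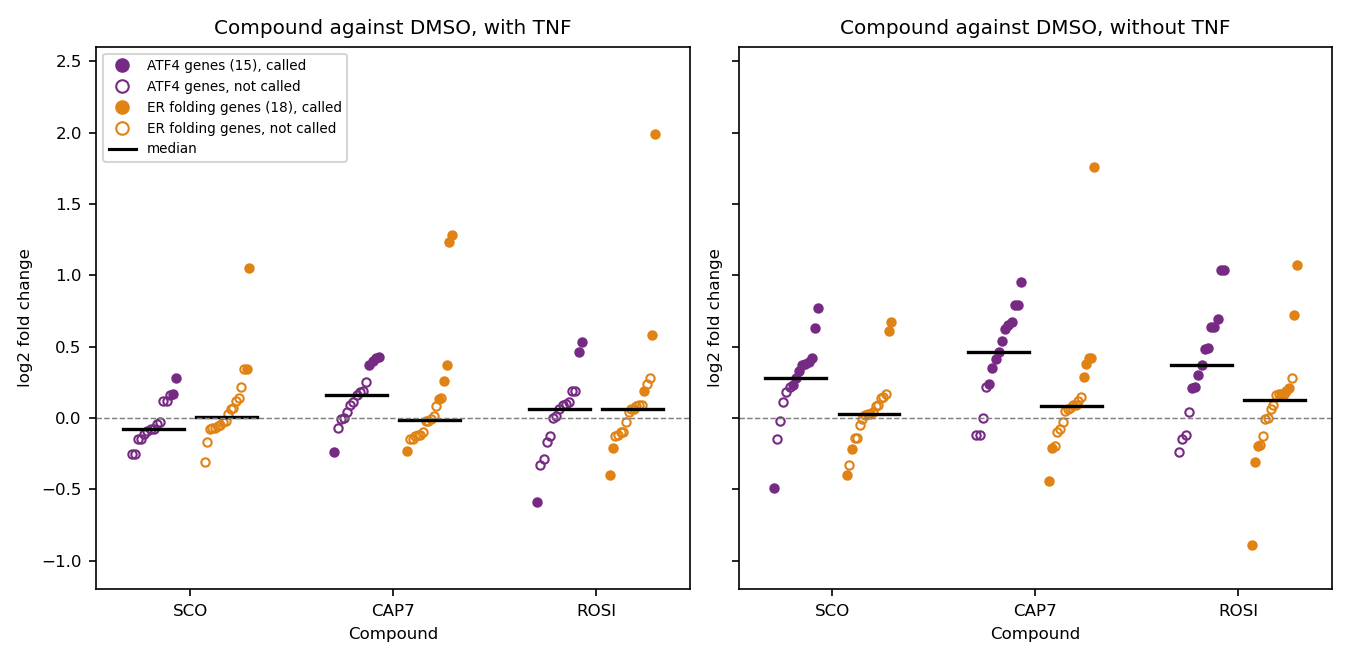
Log2 fold change of each ATF4 gene (purple) and ER folding gene (orange) with SCO, CAP7 or ROSI against DMSO, with TNF on the left and without TNF on the right; filled points were called and black lines are medians. The ATF4 medians are -0.08, 0.16 and 0.06 with TNF (the last -0.09 when libraries are scaled by totals alone) and 0.28, 0.46 and 0.37 without it.

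The difference between the effect of a compound with TNF and without it, the interaction, was tested directly, and it was below 0 for the ATF4 genes that passed the test. The interactions of the compounds share the libraries of TNF plus DMSO and of DMSO alone, so they are not independent of each other. Among 15 ATF4 genes the interaction was lower for 4 with SCO (all genes: 4.64% called, 3.51% higher and 1.13% lower), 5 with CAP7 (16.2%, 10.3% and 5.92%) and 6 with ROSI (14.6%, 10.1% and 4.51%). It was higher for 0 genes with each compound by edgeR, as at an unadjusted p under 0.05, with DESeq2 and with limma-voom. Without the filter on low counts the number for CAP7 was 8. Atf4 gave -0.46 ± 0.11 with SCO, -0.49 ± 0.11 with CAP7 and -0.53 ± 0.11 with ROSI (adjusted p = 0.00915, 0.00193 and 0.000793). Asns gave -0.64 ± 0.092, -0.42 ± 0.091 and -0.58 ± 0.091. Mthfd2 gave -0.63 ± 0.15 with CAP7 and -0.85 ± 0.15 with ROSI, and -0.52 ± 0.15 with SCO, a call lost without replicate 1 or 3 of DMSO alone, replicate 2 or 3 of SCO alone, replicate 2 or 4 of TNF plus DMSO or replicate 1 or 4 of TNF plus SCO (-0.49 to -0.46). Slc7a5 was called with SCO (-0.63 ± 0.16) and Ddit3 with CAP7 (-0.71 ± 0.20). Slc3a2 gave -0.39 ± 0.10 with ROSI. Psat1 was called for none, at -0.20, -0.20 and -0.16. Among ER folding genes Hspa5 was lower for CAP7, at -0.29 ± 0.068: its rise with CAP7 was 0.42 without TNF and 0.13 with TNF, the last lost without replicate 1 or 4 of TNF plus CAP7 or replicate 2 or 3 of TNF plus DMSO (0.11 to 0.13). That rise with TNF was also lost with library sizes alone (0.03), without the filter (0.13) and with only the compared libraries fitted (0.12). Edem1 was also lower for CAP7, at -0.37 ± 0.093. The interaction of ER folding genes was higher for 2 with SCO, and it was higher and lower for 2 and 2 with CAP7 and for 3 and 1 with ROSI, and without replicate 1 of CAP7 alone 4 were lower with CAP7.

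Of the 4 sensor and feedback genes, Ppp1r15a had the largest changes. Ppp1r15a (ENSMUSG00000040435) encodes GADD34, which brings a phosphatase to eIF2α and so ends the translation block. It was at 38.3, 57.6, 61.3 and 58.6 CPM with SCO alone, 102, 84.4, 95.8 and 79.7 CPM with CAP7 alone and 49.0, 75.9, 76.0 and 101 CPM with ROSI alone, against 38, 34.0, 26.8 and 30.7 CPM with DMSO alone. It rose by 1.48 ± 0.21 with CAP7 and 1.21 ± 0.21 with ROSI, and by 0.73 ± 0.22 with SCO, a call lost without replicate 3 of DMSO alone (0.65). With TNF the changes of -0.16, 0.16 and -0.50 were not called, and the interaction was -1.32 ± 0.30 for CAP7 and -1.71 ± 0.30 for ROSI. In compound-treated cells TNF lowered it by 0.93 with CAP7 and 1.32 with ROSI. Ern1 was at 15.8, 13.1, 12.9 and 11.4 CPM with TNF plus DMSO, against 7.11, 8.09, 8.37 and 7.39 CPM with DMSO alone, and rose by 0.78 ± 0.13. In the presence of TNF it fell by 0.44 with CAP7 and 0.53 with ROSI, and was at -0.24 with SCO, not called. Atf6 was called higher with each compound alone, by 0.29, 0.27 and 0.26 for SCO, CAP7 and ROSI, calls that were lost for SCO without replicate 1, 3 or 4 of DMSO alone or replicate 4 of SCO alone (0.22 to 0.29), for CAP7 without replicate 1 or 4 of CAP7 alone or replicate 1, 3 or 4 of DMSO alone (0.21 to 0.27) and for ROSI without replicate 1, 3 or 4 of DMSO alone or replicate 2 or 4 of ROSI alone (0.22 to 0.27). Each of these calls for Atf6 was also lost with library sizes alone (0.22, 0.16 and 0.12). Eif2ak3 (PERK) was called in 0 of the 19 comparisons by edgeR and its lowest unadjusted p was 0.138. Its 95% interval with TNF plus DMSO against DMSO alone was -0.18 to 0.27.

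Dnajb9, Ero1l, Ddit3 and Trib3 were among the genes that differed most between compounds. All 6 pairs of compounds were compared, without and with TNF, and since doses are not given these are differences between the treatments as used. Without TNF, 11 of the 37 genes were called for CAP7 against ROSI, 8 for SCO against ROSI and 7 for SCO against CAP7. With TNF these numbers were 9, 7 and 5, and only some of the called genes are named below. CAP7 stood above ROSI without TNF in Ddit3 (0.58 ± 0.14), Trib3 (0.81 ± 0.15), Sdf2l1 (0.69 ± 0.13), Xbp1 (0.26 ± 0.056), Edem1 (0.29 ± 0.065) and Hspa5 (0.25 ± 0.048), where 11.7% of all genes were called (5.39% higher, 6.27% lower). It stood below ROSI in Dnajb9 (-0.65 ± 0.062) and Asns (-0.25 ± 0.064). With TNF, CAP7 stood above ROSI in Trib3 (0.77 ± 0.15) and Atf5 (0.32 ± 0.071) and below it in Dnajb9 (-0.71 ± 0.061), where 8.57% were called (3.48% higher, 5.09% lower). SCO stood below ROSI without TNF in Asns (-0.28 ± 0.064), Psat1 (-0.32 ± 0.061), Mthfd2 (-0.41 ± 0.10), Dnajb9 (-0.45 ± 0.062) and Manf (-0.31 ± 0.081) and above it in Sdf2l1 (0.56 ± 0.13) and Xbp1 (0.24 ± 0.056), where 14.7% were called (7.39% higher, 7.33% lower). With TNF, SCO stood below ROSI in Dnajb9 (-0.93 ± 0.062), Psat1 (-0.36 ± 0.062) and Asns (-0.34 ± 0.065), where 14.4% were called (5.74% higher, 8.64% lower). SCO stood below CAP7 without TNF in Ddit3 (-0.73 ± 0.14), Hspa5 (-0.38 ± 0.048) and Psat1 (-0.25 ± 0.061), where 6.04% were called (3.01% higher, 3.04% lower), and with TNF in Hspa5 (-0.21 ± 0.048), where 9.16% were called (4.13% higher, 5.03% lower). The call for Hspa5 with TNF was lost with only the compared libraries fitted (-0.21). Atf4 was called for none of the 6 pairs, and the 95% intervals of its difference were -0.37 to -0.05 for SCO against ROSI, -0.13 to 0.20 for CAP7 against ROSI and -0.41 to -0.09 for SCO against CAP7 without TNF.

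Other genes of these pathways were counted for context. Of 26 tested further ATF4 targets, 8 rose and 1 fell with SCO alone, 14 and 1 with CAP7 alone and 13 and 3 with ROSI alone, against DMSO alone. Over all genes 10.3% rose and 8.99% fell with SCO, 15.2% and 15% with CAP7 and 18.4% and 19% with ROSI. Cth, which makes cysteine, rose by 0.83 ± 0.11, 0.80 ± 0.11 and 1.34 ± 0.11 with SCO, CAP7 and ROSI. Gdf15, a secreted stress hormone, rose by 1.40 ± 0.18 with CAP7 and 1.46 ± 0.18 with ROSI. TNF plus DMSO, against DMSO alone, gave 8 higher and 7 lower in this list, near the share over all genes (26.7% and 27.5%), among them Eif4ebp1, a repressor of translation, at -1.52 ± 0.056, and the stress factor Atf3, at 2.08 ± 0.19. With libraries scaled by totals alone the counts for the compounds were 6 and 1, 11 and 1, and 11 and 4. Of 20 genes for tRNA synthetases and the tRNA exporter Xpot, 8 rose and 2 fell with SCO alone, 14 and 1 with CAP7 alone and 12 and 2 with ROSI alone. In the same list 12 rose with TNF plus DMSO (all genes: 26.7%), such as Kars at 0.92 ± 0.069. With TNF present, 6 rose and 1 fell with CAP7, which turned to 2 and 7 when libraries were scaled by totals alone, and for CAP7 the interaction was lower for 11. Over all genes 18% rose and 14.2% fell with CAP7 in the presence of TNF, and 5.92% had a lower interaction.

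Of 55 tested further ER genes, 14 rose and 9 fell with TNF plus DMSO, against DMSO alone, which is no more than the share over all genes (26.7% higher and 27.5% lower). Fkbp11, an ER prolyl isomerase, rose by 1.11 ± 0.13, and Rpn1, a subunit of the glycosylation complex, by 0.48 ± 0.061. Derl1, a channel component for the export of misfolded proteins, fell by 0.74. With compounds alone more of these genes fell than rose: 14 and 2 with SCO, 13 and 5 with CAP7, and 26 and 3 with ROSI, where 8.99%, 15% and 19% of all genes fell. Scaled by totals alone the libraries gave 22 and 2, 30 and 3, and 38 and 1. Os9, a lectin of the same export path, fell by 0.44, 0.53 and 0.73, whereas Derl1 rose by 0.47, 0.63 and 0.81. Derl1 also rose in the presence of TNF, by 0.47 with SCO, 0.77 with CAP7 and 0.91 with ROSI. Ppp1r15b, the constant partner of the eIF2α phosphatase, rose by 0.61, 0.76 and 0.85 with the compounds alone and fell by 0.50 with TNF plus DMSO. Among 11 genes of eIF2 and its kinases, including this gene, 4 rose and 3 fell with TNF plus DMSO, near the share over all genes (26.7% and 27.5%), and the RNA-sensing kinase Eif2ak2 was at 0.92 ± 0.18.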

How the data were processed

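The deposited table holds raw counts per gene of 57186 genes in 32 libraries, and every column was used. The submitters' processing notes list HTSeq 2.0.5, STAR 2.7.11b and cutadapt 4.9, besides limma 3.60.6 under R 4.4.1, and the GRCm39 build. Which strand was counted is not given in the sources used here. The GENCODE M21 annotation gave symbols for 51880 of the gene IDs, and promoters came from RefSeq on GRCm38.p6. Ddit3 has 2 IDs, and the one with counts was used. Library totals of 11312837 to 37675008 counts set the precision, which for low genes such as Ern1 is limited by few counts.

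R 4.3.3 with edgeR 4.0.16 was used: filterByExpr by group (14428 of 28862 genes with a count kept), TMM scaling, 1 mean per group over 32 libraries and quasi-likelihood F tests for 19 contrasts, with Benjamini-Hochberg adjustment over all genes tested. A call has an adjusted p under 0.05. The steps were also run on simulated data, and no result of that run is given here. Groups follow the sample titles. No libraries of a group agreed within counting noise. Alternatives were RLE factors, library sizes alone, no filter, a filter of 5 CPM in 4 libraries, DESeq2 1.42.0, limma-voom (limma 3.58.1), a replicate block, only the libraries compared, and leaving out each library. The members, lists and tests were chosen with earlier results of these data known. Any of the 37 members could be named, and of other lists at most 4 genes with the lowest p in a comparison.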

Additional observations from a re-analysis of the deposited data

Results flagged for a closer look

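The 37 genes were looked at in each of 8 groups of 4 libraries, 296 sets in all, for a highest or lowest library that stood apart from the other 3. A library stood apart where its gap to the nearest one, divided by the range of the 4, was above Dixon's 95% critical value. That cut is set to pass about 1 in 20 sets by chance, and 17 sets, 5.74%, passed it. In CAP7 alone, replicate 1 was apart for Sesn2 at 39.1 CPM (others 30.6 to 31.8), Psat1 at 380.1 CPM (440.3 to 449.1) and Dnajc3 at 92.8 CPM (81.6 to 83.4). In SCO alone, replicate 1 was low for Ppp1r15a at 38.3 CPM (57.6 to 61.3), replicate 3 was low for Dnajc3 at 76.2 CPM (87.2 to 87.7) and high for Hyou1 at 19.3 CPM (14.7 to 15.2), and replicate 4 was high for Ern1 at 8.72 CPM (7.09 to 7.28). In ROSI alone, replicate 1 was low for Slc7a5 at 28.7 CPM (38.4 to 38.8). In TNF plus SCO, replicate 1 was high for Pdia6 at 374.9 CPM (345.4 to 349.3), replicate 2 for Dnajb9 at 113.6 CPM (107.5 to 108.1) and replicate 3 for Slc7a5 at 27.5 CPM (20.6 to 21.2). In TNF plus CAP7, replicate 1 was low for Hsp90b1 at 568.8 CPM (777.9 to 807.5), and in TNF plus ROSI, replicate 4 was high for Dnajc3 at 118.1 CPM (103.8 to 105). In TNF plus DMSO, replicate 4 was high for Dnajc3 at 112 CPM (102.1 to 103.5) and replicate 3 low for Sel1l at 149.7 CPM (164.6 to 167). In DMSO alone, replicate 3 was low for Ero1l at 300.0 CPM (374 to 379.9) and replicate 2 high for Creld2 at 22.5 CPM (17.1 to 17.9).

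The effect of a compound differed between cells with and without TNF, by the interaction test of edgeR, in 30 pairs of gene and compound. For SCO the differences, with TNF minus without on the log2 scale, were -0.46 for Atf4, -0.64 for Asns, -0.52 for Mthfd2, -0.63 for Slc7a5, 0.44 for Dnajb9 and 0.30 for Xbp1. For CAP7 they were -0.49 for Atf4, -0.71 for Ddit3, -0.42 for Asns, -0.63 for Mthfd2, -0.31 for Slc3a2 and -0.29 for Hspa5. They were also 0.86 for Dnajb9, -0.37 for Edem1, 0.31 for Xbp1, -1.32 for Ppp1r15a, -0.43 for Atf6 and -0.84 for Ern1 with that compound. For ROSI the ATF4 genes gave -0.53 for Atf4, -0.66 for Ddit3, -0.48 for Chac1, -0.58 for Asns, -0.85 for Mthfd2 and -0.39 for Slc3a2. The others gave 0.92 for Dnajb9, 0.35 for Dnajc3, -0.30 for Edem1, 0.78 for Xbp1, -1.71 for Ppp1r15a and -0.43 for Atf6 with ROSI. Besides the calls for Mthfd2 and Xbp1 with SCO given above, 6 did not hold without 1 library. The call for Slc3a2 with CAP7 was lost without replicate 1 or 3 of CAP7 alone, replicate 1 or 4 of DMSO alone, replicate 2 or 3 of TNF plus CAP7 or replicate 1, 2 or 4 of TNF plus DMSO (-0.31 to -0.25), and that for Atf6 with CAP7 without replicate 1 of CAP7 alone, replicate 1 of DMSO alone, replicate 1 or 3 of TNF plus CAP7 or replicate 1 or 2 of TNF plus DMSO (-0.40 to -0.36). With ROSI the call was lost for Atf6 without replicate 1 of DMSO alone, replicate 2 of ROSI alone or replicate 1 or 4 of TNF plus ROSI (-0.41 to -0.39), for Chac1 without replicate 3 of DMSO alone, replicate 2 or 3 of ROSI alone, replicate 4 of TNF plus DMSO or replicate 1 or 4 of TNF plus ROSI (-0.46 to -0.37), for Ddit3 without replicate 4 of ROSI alone, replicate 2 of TNF plus DMSO or replicate 1 or 4 of TNF plus ROSI (-0.61 to -0.55) and for Edem1 without replicate 2 of ROSI alone or replicate 1 of TNF plus ROSI (-0.28 to -0.25). The call for Edem1 with ROSI was also lost without the filter on low counts (-0.31).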

How the results depend on the processing

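Of 269 calls over the 37 genes and 19 comparisons, 266 remained with DESeq2, 263 with limma-voom, 268 with RLE factors, 237 with library sizes alone, 247 without the filter, 269 with the stricter filter and 251 with only the compared libraries fitted, and 0 changed direction under any of these. Without 1 library, 69 of the calls were lost at least once. No pairing by the replicate numbers of the labels was seen: the deviations of same-numbered libraries correlated at -0.08 to 0.12, and in 0 of 28 pairs of groups were all 4 correlations over 0.1. Whether a few genes shared deviations between same-numbered libraries was not tested. With the replicate block 268 of the 269 calls remained, and Dnajb9 with SCO against CAP7 without TNF, 0.20, was lost (adjusted p = 0.056).

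With library sizes alone the ER folding medians were -0.04, -0.03 and -0.01 with SCO, CAP7 and ROSI alone, -0.07, -0.12 and -0.10 with TNF plus each compound against TNF plus DMSO, and 0.01 without and 0.03 with TNF for SCO against ROSI. The ATF4 medians with ROSI were then 0.23 without TNF and -0.09 with it, and 8 and 16 of the 37 genes were called with TNF plus SCO and TNF plus ROSI against TNF plus DMSO. Comparing SCO with CAP7, 9 genes were called with TNF without the filter and 1 with only the compared libraries, and without TNF 12 with the stricter filter and 11 with DESeq2. For CAP7 against ROSI with TNF, 4 were called with only the compared libraries. The cause of these moves was not tested, except that fitting only the compared libraries leaves fewer samples.

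Leaving out 1 library gave these ranges. For TNF plus CAP7 against CAP7 alone the ATF4 median was -0.52 to -0.28, lowest without replicate 4 of TNF plus CAP7, and the ER folding median 0.18 to 0.29, lowest without replicate 3 of that group. The ER folding median of the interaction was -0.12 to -0.02 for CAP7 (without replicate 1 of TNF plus CAP7) and -0.02 to 0.07 for SCO (without replicate 4 of TNF plus DMSO). SCO against CAP7 gave 4 to 8 called genes without TNF, against 7 (4 without replicate 1 of SCO alone or replicate 3 of CAP7 alone), and 2 to 7 with TNF, against 5 (2 without replicate 3 of TNF plus SCO or replicate 1 of TNF plus CAP7). With TNF, CAP7 against ROSI gave 5 to 10, against 9 (5 without replicate 4 of TNF plus CAP7), and SCO against ROSI 4 to 8, against 7 (4 without replicate 4 of TNF plus SCO).

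Uncalled values that changed sign with library sizes alone were Hspa5 and Xbp1 with SCO alone (both -0.03), Xbp1 with CAP7 alone (-0.05), Edem1 with TNF plus CAP7 (-0.10) and Atf4 with TNF plus ROSI (-0.05). Without 1 library, Edem1 with TNF plus CAP7 lay at -0.01 to 0.03, Ppp1r15a with TNF plus CAP7 at -0.06 to 0.35 and Atf4 for CAP7 against ROSI without TNF at 0 to 0.11.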

Other observations

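Stress genes of the mitochondria and of the cytosol, which are in neither the ATF4 nor the ER list, were counted as well. Of 10 genes of the mitochondrial unfolded protein response, 1 rose and 6 fell with TNF plus DMSO, set against DMSO alone, where 26.7% of all genes rose and 27.5% fell. Clpx, the regulatory part of a matrix protease, fell by 0.67 on the log2 scale, and Afg3l2, a protease of the inner membrane, fell by 0.45. With the compounds alone 7, 6 and 9 of the 10 rose for SCO, CAP7 and ROSI, and the same numbers rose with TNF plus the compound against TNF plus DMSO. Of all genes 10.3%, 15.2% and 18.4% rose without TNF and 13.2%, 18% and 19.6% with it. With libraries scaled by totals alone these became 4, 5 and 6 without TNF and 3, 6 and 6 with it. Hspd1, the matrix chaperonin, rose by 0.55 ± 0.059, 0.75 ± 0.059 and 0.89 ± 0.059 with SCO, CAP7 and ROSI alone. Clpx rose by 0.53, 0.55 and 0.66 with the same compounds in the presence of TNF.

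Of 12 tested cytosolic heat shock genes, 7 rose and 1 fell with TNF plus DMSO, against DMSO alone (all genes: 26.7% and 27.5%). The rises were 0.75 ± 0.092 for Hsph1, a nucleotide exchange factor of HSP70, 0.58 ± 0.085 for Hsp90aa1 and 0.53 ± 0.061 for Hsp90ab1, the inducible and the constitutive cytosolic HSP90. With the compounds alone 2, 5 and 4 of the 12 fell for SCO, CAP7 and ROSI, where 8.99%, 15% and 19% of all genes fell, and 3, 7 and 6 with libraries scaled by totals alone. Hspa1b, an inducible HSP70, fell by 0.83 with CAP7 and 1.15 with ROSI.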
